A study of Mus musculus with 13 samples.

Results

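The respiratory chain genes of mouse E14 embryonic stem cells were examined in mRNA and open chromatin. They were taken from the deposited gene table by position and symbol: the 13 protein-coding genes on the mitochondrial chromosome, and 86 nuclear genes whose symbols begin with Nduf and a subunit letter and digit, with Uqcr, with Cox and a digit from 4 to 8, or with Atp5, or are Sdha, Sdhb, Sdhc or Sdhd. These are 99 of the 24470 genes in the table. By symbol, 39 nuclear genes belong to complex I, 4 to complex II, 8 to complex III, 18 to complex IV and 17 to complex V. The rule also takes Ndufs5-ps, a pseudogene, and Cox7a2l, a factor in the joining of complexes, and it leaves out Cyc1 and Ndufab1, which are spelled differently. Ndufa4 is counted here with complex I by its name, although its protein is now placed in complex IV.

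E14 is an established line of 129/Ola background, grown here in serum with LIF, and every library comes from this 1 line, unmodified. In the low-input ATAC&mRNA-seq protocol, transposase cuts open chromatin in permeabilized cells, and poly(A) RNA is then caught on oligo(dT) beads from the same lysate, so that both libraries come from 1 sample of cells. The 2 experiments took place on different days: experiment 1 gave libraries from 10000 and 20000 cells, and experiment 2 from 5000, 10000 and 20000 cells, which makes 5 mRNA and 5 ATAC libraries. The published Omni-ATAC protocol was run beside it on 5000, 10000 and 50000 cells, with 1 ATAC library each and no mRNA. Nothing in the labels says that libraries of 1 day came from separate cultures, so p-values measure the spread between these libraries, which may be technical.

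The mRNA libraries hold 13727122 to 20426252 counts. Levels are given as CPM, the gene's counts divided by the library's total and multiplied by 1000000, and a count of 0 allows up to 0.147 to 0.219 CPM (3 counts, counting error only). The 8 embryonic stem cell markers were all above 1 CPM and summed to between 3445 and 3602 CPM in every library, with Dppa5a the most abundant at 1572.5 CPM on average. In the test between experiments described below, Zfp42 rose and Utf1 fell (25% of the 8, against 12.5% of all genes tested). Of the other cell types checked, the 10 fibroblast markers summed to 33.4 and 38.1 CPM in experiment 1 and to between 9.25 and 11.3 CPM in experiment 2, with Thy1 the most abundant and Col3a1 and Lum at 0 in all libraries. The 7 primitive endoderm markers summed to 134.9 and 149.9 CPM in experiment 1 and to between 92.8 and 109.6 CPM in experiment 2. The 6 muscle markers summed to 3.06 and 3.81 CPM against 0.477 to 1.16 CPM, with Actc1 at 0. The fibroblast, primitive endoderm and muscle sums were lower in experiment 2. In the test described below, 1 of 4 tested fibroblast markers fell (Thy1), against 6.76% of all genes. Of 5 tested primitive endoderm markers 3 fell (Dab2, Gata6 and Sparc), and of 1 tested muscle marker 0. The part of these lists in the differences between experiments described below was not tested. In bulk RNA, fewer cells of a type and less RNA per cell cannot be told apart.

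The respiratory chain sits in the inner mitochondrial membrane. Complexes I and II pass electrons from NADH and succinate to ubiquinone, complex III passes them to cytochrome c, complex IV reduces oxygen, and complex V, the ATP synthase, uses the proton gradient that complexes I, III and IV build. The mitochondrial genome is transcribed as long precursors from both strands that are cut into single mRNAs, and its products sit at the core of complexes I, III, IV and V. All other subunits, and all of complex II, come from the nucleus, and NRF1, the ETS factor GABP and YY1 are the textbook regulators of these nuclear genes.

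Promoter sequences in 3 sets are shown because they carry the motifs of those factors, whose occurrence among the nuclear genes is described at the end. The windows run from 250 bases before to 50 after the gene start, are taken from RefSeq (GRCm38.p6), and were matched by gene for 69 of the 86 nuclear genes. In 52 of these the window's start equals the start in the count table. All sequences read 5′ to 3′ on the gene's strand, with the motif in capitals. The first set holds the NRF1 motif, which is GCGCA, any base and then GCGC, found on either strand before the start of genes for subunits of complexes I, II, IV and V. The genes are Ndufa5 (chr6:24527692-24527731), Ndufa8 (chr2:36049344-36049383), Ndufs5 (chr4:123718260-123718299), Sdha (chr13:74350271-74350310), Cox6a1 (chr5:115349096-115349135), Atp5g2 (chr15:102671065-102671104) and Atp5k (chr5:108434425-108434464), all on the minus strand.
Ndufa5: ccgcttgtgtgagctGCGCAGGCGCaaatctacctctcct
Ndufa8: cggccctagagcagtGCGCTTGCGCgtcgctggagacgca
Ndufs5: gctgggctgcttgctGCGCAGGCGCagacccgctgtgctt
Sdha: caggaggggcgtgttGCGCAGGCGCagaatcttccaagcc
Cox6a1: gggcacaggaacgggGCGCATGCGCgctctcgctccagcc
Atp5g2: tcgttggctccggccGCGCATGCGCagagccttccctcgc
Atp5k: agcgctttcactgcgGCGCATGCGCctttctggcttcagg

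The second set holds the ETS motif CCGGAAGT or its complement before the start of Atp5h (chr11:115419936-115419973), Uqcr11 (chr10:80406865-80406902) and Uqcrh (chr4:116075071-116075096), all on the minus strand. These are the 3 genes in which it lies wholly before the start.
Atp5h: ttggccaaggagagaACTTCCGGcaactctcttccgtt
Uqcr11: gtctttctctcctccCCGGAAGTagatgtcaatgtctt
Uqcrh: cgaggagtatgccgcACTTCCGGcca

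The third set holds the YY1 motif AAGATGGCG, which lay after the start in every gene that had it. The genes are Ndufa9 (chr6:126849099-126849123, minus strand), Ndufc1 (chr3:51408917-51408941, minus strand), Ndufs7 (chr10:80249465-80249489, plus strand) and Atp5j2 (chr5:145191502-145191526, minus strand).
Ndufa9: tgtgggagAAGATGGCGgccgccgt
Ndufc1: tgcggaacAAGATGGCGccgtccgt
Ndufs7: ccgaggccAAGATGGCGgcgctggc
Atp5j2: aggacttcAAGATGGCGtcactcgg

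The 13 mitochondrial genes differed widely in level. Divided by gene length, ND1 was highest at 8107 ± 1307 CPM per kb (SD, n = 5), followed by CYTB at 4111 ± 453 and ND2 at 2386 ± 403. ND1 and ND2 encode membrane subunits of complex I, and CYTB encodes cytochrome b of complex III. These 3 genes held 75.8% to 78.4% of all mitochondrial counts in each library, and ND1 alone held 36.7% to 42.8%. ND4, ND6, COX1 and COX2 came next with 1055 ± 123, 959 ± 224, 625 ± 101 and 576 ± 44.2 CPM per kb. ND5, COX3, ATP6 and ATP8 lay at 391 ± 136, 378 ± 62.7, 254 ± 26.9 and 137 ± 82.7 CPM per kb, and ND3 and ND4L, both of complex I, at 37.5 ± 3.52 and 12.5 ± 4.90. From ND4 down to COX3 the range over the libraries of each gene overlapped that of the next in this order, as did those of ATP6 and ATP8. The ranges of ND1, CYTB and ND2, and those of ND3 and ND4L, overlapped with no other.

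**Figure D1:**
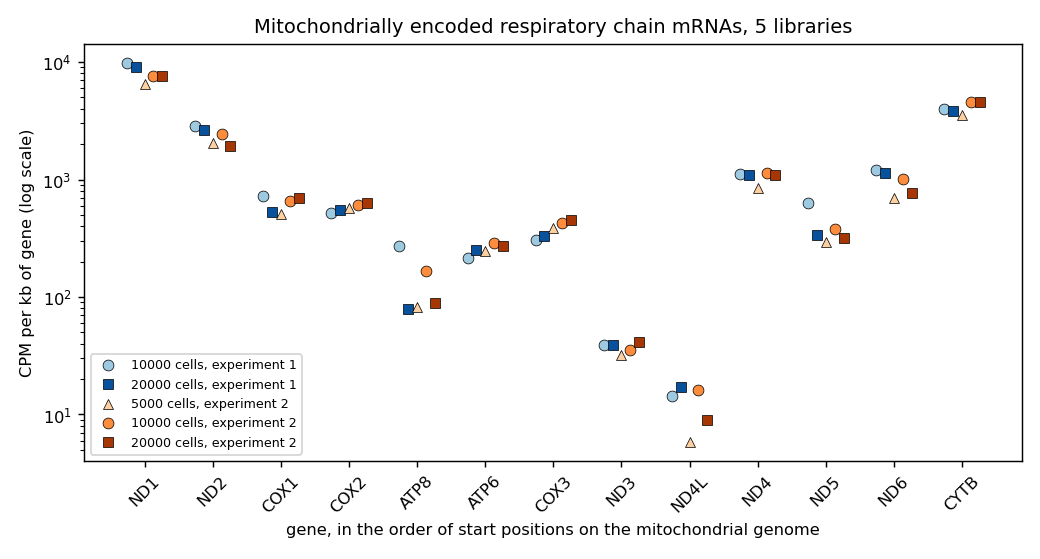
Level of each mitochondrial gene in each of the 5 mRNA libraries, in CPM per kb of gene on a log axis, in the order of start positions on the mitochondrial genome. Each point is 1 library; ND1, ND2 and CYTB lie at 1924 or above in all libraries, ND3 and ND4L below 50.

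Several of these genes share bases or lie opposite each other, and whether reads were assigned by strand is not given in the sources used here. ATP8 (chrM:7766-7969 in mm10) overlaps ATP6 (chrM:7927-8607), ND4L (chrM:9877-10173) overlaps ND4 (chrM:10167-11544), ATP6 touches COX3 (chrM:8607-9390), and ND5 (chrM:11742-13565) overlaps ND6 (chrM:13552-14070), the only one of the 13 on the minus strand. Reads from such pairs, and from near-identical nuclear copies of mitochondrial genes, cannot be told apart here. The levels of ATP8, ND4L, ND5 and ND6 are therefore uncertain, and so is that of ATP6, which has a nuclear copy described below. Nuclear copies of the other mitochondrial genes were not searched for.

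In total the nuclear genes gave about 3 times the counts of the mitochondrial ones. The nuclear sum was 6.07% and 6.37% of all counts in experiment 1 (10000 and 20000 cells) and 6.15%, 6.07% and 5.67% in experiment 2 (5000, 10000 and 20000 cells). The mitochondrial sum was 2.22% and 2.02%, then 1.62%, 1.98% and 1.91%, in the same order. The ratio of the sums was 2.74, 3.16, 3.81, 3.06 and 2.97, with a mean of 3.15 ± 0.400 (SD, n = 5). The library from 5000 cells had both the smallest mitochondrial share and the highest ratio, while the other 4 libraries lay between 2.74 and 3.16. The ratio averaged 2.95 ± 0.297 in experiment 1 and 3.02 ± 0.0600 at the same inputs in experiment 2 (SD, n = 2 each), and the range of experiment 1 contains both values of experiment 2. The value rests on the abundant genes: the ratio of the median levels averaged 0.941 over the libraries, and without ND1 the ratio of sums ran from 4.75 to 6.20. The ratio of medians was 0.688 and 0.812 in experiment 1 and 1.24, 0.929 and 1.04 in experiment 2, in the order above. By this measure the experiments did not overlap. All libraries were made from poly(A) RNA, so the ratio concerns RNA that oligo(dT) can catch. The mitochondrial sum also depends on how reads that match nuclear copies were treated, which is not given in the sources used here.

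**Figure D2:**
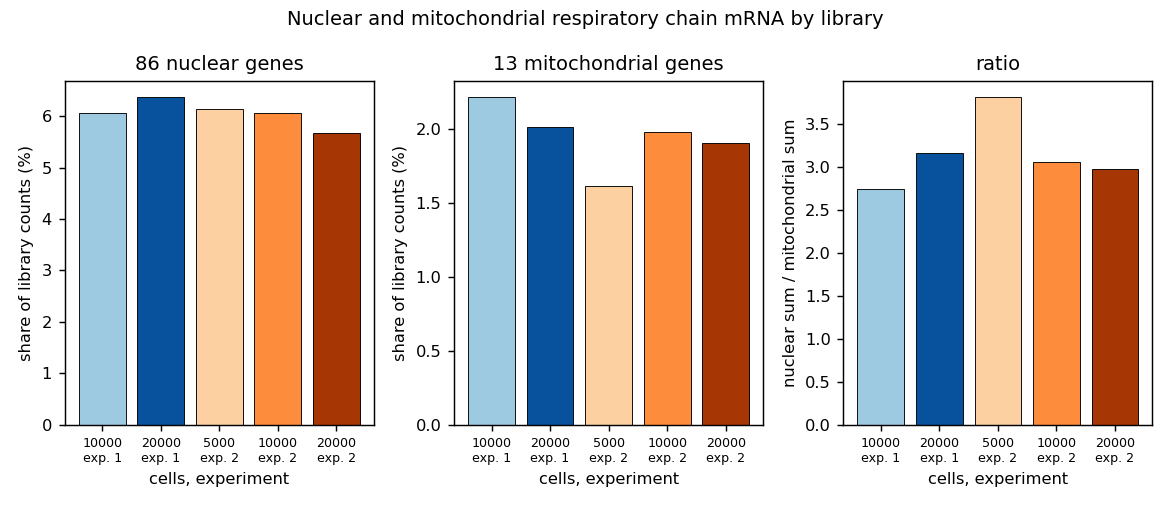
Share of library counts (%) from the 86 nuclear and the 13 mitochondrial genes, and the ratio of the sums, as 1 bar per mRNA library. The mitochondrial share is smallest (1.62%) and the ratio highest (3.81) in the library from 5000 cells.

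The median coefficient of variation over the 5 libraries was 9.67% for the 86 nuclear genes and 16.1% for the 13 mitochondrial genes. By complex, it was 16.2% for the 18 nuclear genes of complex IV, 6 of which averaged under 20 CPM. It was 7.93% to 9.71% for the nuclear genes of the other complexes, with 2 genes under 20 CPM in complex I and 0 in complexes II, III and V. Over all genes tested it was 22.4%, and over those with at least 100 CPM 11.3%. Transcript lengths were not used here, so CPM of nuclear genes give shares of counts and no order of molecules per cell. Of the nuclear genes, 74 averaged over 100 CPM, 22 over 1000 CPM and 8 under 20 CPM.

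The 2 nuclear genes with the highest mean CPM in each complex are given as a reference for the sizes below. In complex I these were Ndufa7, an accessory subunit, with 1802 ± 227 CPM (SD, n = 5) and Ndufa4 with 1620 ± 180 CPM. In complex II they were Sdhb, the iron-sulfur subunit, with 462 ± 28.7 CPM and Sdhd, a membrane anchor, with 251 ± 12.9 CPM. In complex III they were the small subunits Uqcr10 with 1943 ± 295 CPM and Uqcrq with 1667 ± 151 CPM. In complex IV they were Cox6c with 3156 ± 620 CPM and Cox4i1 with 2519 ± 434 CPM. In complex V they were Atp5b, the catalytic beta subunit, with 3197 ± 384 CPM and Atp5g3, a source of the membrane ring's subunit c, with 2576 ± 162 CPM.

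Many subunits of complex IV exist as a widely expressed and a tissue-restricted isoform. The widely expressed forms were measured as follows, in CPM: Cox4i1 at 2519 ± 434, Cox6a1 at 1989 ± 82.4, Cox6b1 at 853 ± 71.8, Cox7a2 at 1392 ± 209, Cox7b at 2320 ± 217 and Cox8a at 1464 ± 221 (SD, n = 5). The muscle forms Cox6a2 and Cox8b had at most 4 and 2 counts in any library, which is near the limit of 3 counts for a count of 0, and neither entered the test. The third muscle form, Cox7a1, was present at 18.2 ± 4.31 CPM. Among the forms known from testis, Cox6b2 was at 31.5 ± 6.52 CPM, Cox8c at 6.05 ± 4.02 CPM and Cox7b2 at 2.80 ± 1.31 CPM. Cox4i2, the form known from lung and low oxygen, was at 9.29 ± 3.64 CPM.

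Outside complex IV, Ndufa4 (1620 ± 180 CPM) and its relative Ndufa4l2 (2.81 ± 1.42 CPM), known as a hypoxia-induced gene, were both measured. The 3 genes Atp5g1, Atp5g2 and Atp5g3 encode the same mature subunit c, and all were measured: Atp5g3 at 2576 ± 162 CPM, Atp5g1 at 1371 ± 261 CPM and Atp5g2 at 97.3 ± 13.6 CPM. Cox7a2l, related in sequence to Cox7a2, was at 161 ± 5.73 CPM. Reads shared by such related genes could be split between them, which was not tested.

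**Figure D3:**
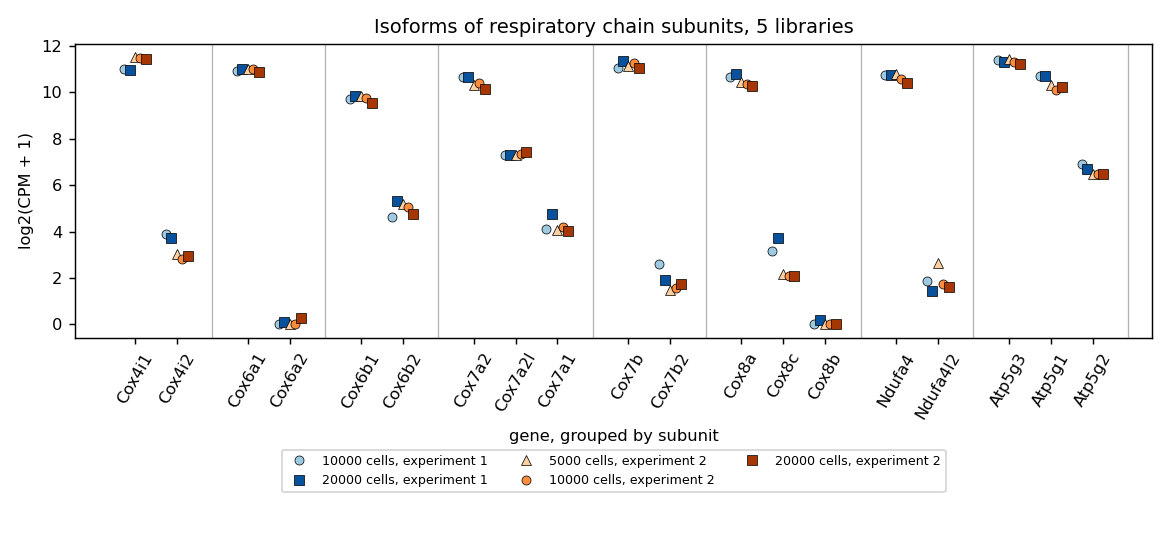
Levels of subunit isoforms as log2(CPM + 1), grouped by subunit, with 1 point per mRNA library. The widely expressed complex IV forms Cox4i1, Cox6a1, Cox6b1, Cox7a2, Cox7b and Cox8a lie above 9.5 on this scale, and the muscle forms Cox6a2 and Cox8b near 0. The points of Cox4i2 and Cox8c are higher in experiment 1 than in experiment 2.

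Between the experiments, 12 nuclear genes, with at least 1 in each of the 5 complexes, and 3 mitochondrial genes changed, and the median change over all members was near 0. When any single library was left out, the log2 fold change ran from -1.91 to -1.28 for Cox8c and -0.56 to -0.47 for Atp5g1. It then ran from -0.62 to -0.37 for Cox6c, 0.43 to 0.49 for Cox4i1 and 0.53 to 0.68 for Ndufb7. Such a fit has 1 library in 1 experiment, so the spread comes from the other experiment alone. The comparison used the 10000-cell and 20000-cell libraries of both days, fitted with edgeR's quasi-likelihood test on the whole table with Benjamini-Hochberg adjustment at 0.05. Of 97 tested members 15 passed, 5 higher and 10 lower in experiment 2. Over all 12523 genes tested 12.5% passed, 5.75% higher and 6.76% lower, against 15.5% of the members. The median log2 fold change was -0.00 for the members and 0.00 for all genes. The values of both experiments did not overlap in 49 members, or 50.5%, against 53.9% of all genes tested. The distance between the shares called depended on the setting. It was 19.2% of members against 8.54% of all genes without the filter on low counts, and 21.7% against 21.9% among genes of at least 10 CPM.

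**Figure D4:**
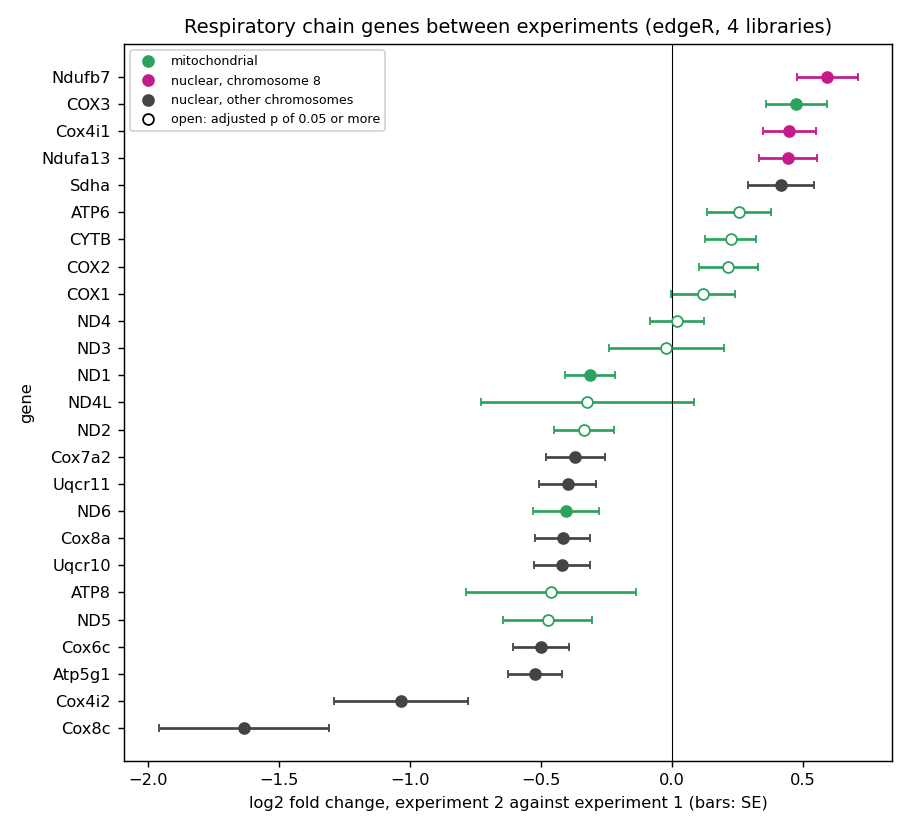
Log2 fold change of experiment 2 against experiment 1 with its standard error (edgeR, 4 libraries) for the 13 mitochondrial genes and the nuclear genes past the threshold; filled points have an adjusted p under 0.05. Cox8c (-1.63) and Cox4i2 (-1.04) lie farthest to the left, and the chromosome 8 genes Ndufb7, Cox4i1 and Ndufa13 all lie to the right.

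Among the mitochondrial genes, COX3 rose and ND1 and ND6 fell. COX3, which encodes a core subunit of complex IV, stood at 237.8 and 256.9 CPM in experiment 1 and at 334 and 353 CPM in experiment 2 (10000 and 20000 cells each). Its log2 fold change was 0.48 ± 0.12 (SE, edgeR adjusted p = 0.00707). ND1 stood at 9399 and 8632 CPM and then at 7288 and 7231 CPM, a log2 fold change of -0.31 ± 0.096 (edgeR adjusted p = 0.0321). For both genes the days did not overlap. ND6 stood at 628 and 585 CPM and then at 519 and 395 CPM (-0.41 ± 0.13, edgeR adjusted p = 0.0356).

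Of the 7 mitochondrial complex I genes 2 fell and 1 had a positive log2 fold change, with a median of -0.32. All 3 complex IV genes had positive values, with 0.12 for COX1, 0.22 for COX2 and 0.48 for COX3, and 1 passed. CYTB of complex III had 0.22 (edgeR adjusted p = 0.135). The complex V genes had opposite signs, -0.46 for ATP8 and 0.26 for ATP6, and neither passed. COX1, ATP8, ND3, ND4 and ND4L differed in sign between the 10000-cell and the 20000-cell libraries. The share of ND1 in the mitochondrial counts was 42.4% and 42.8% in experiment 1 and 36.7% and 37.9% in experiment 2 at the same inputs. That of CYTB was 20.5% and 21.9%, then 26.2% and 27.7%.

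The counts by complex are small and are read against the 5.75% of all genes that rose and the 6.76% that fell. In complex IV, 1 of 16 tested nuclear genes rose and 5 fell. Cox4i1 (chr8:120668225-120674209) stood at 2082 and 2015 CPM in experiment 1 and at 2846 and 2741 CPM in experiment 2, a log2 fold change of 0.45 ± 0.10 (edgeR adjusted p = 0.00409). Its relative Cox4i2 (chr2:152754173-152765037) went the other way, from 14.1 and 12.3 CPM to 6.13 and 6.71 CPM (-1.04 ± 0.26, edgeR adjusted p = 0.00837). For both forms of this subunit the libraries of the days did not overlap, the 5000-cell library included, with 2909 CPM for Cox4i1 and 7.22 CPM for Cox4i2.

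Cox8c (chr12:102899306-102900534) had the largest change of the 97 members, from 8.01 and 12.3 CPM to 3.29 and 3.23 CPM (-1.63 ± 0.33, edgeR adjusted p = 0.00130), and was at 3.46 CPM with 5000 cells. Its abundant relative Cox8a (chr19:7215158-7217616) fell from 1636 and 1747 CPM to 1307 and 1223 CPM (-0.42 ± 0.11, edgeR adjusted p = 0.00962). Cox6c (chr15:35931976-35938246), a small subunit without isoforms here, fell from 3671 and 3936 CPM to 2908 and 2463 CPM (-0.50 ± 0.11, edgeR adjusted p = 0.00253). Cox7a2 fell by 0.37 ± 0.11 on the log2 scale (edgeR adjusted p = 0.0305).

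In complex III, 2 of 8 nuclear genes fell, both small accessory subunits, against 6.76% of all genes. Uqcr10 (chr11:4701968-4704344) stood at 2214 and 2232 CPM and then at 1784 and 1536 CPM (-0.42 ± 0.11, edgeR adjusted p = 0.0108). Uqcr11 (chr10:80402997-80406821) stood at 1004 and 1131 CPM and then at 827 and 792.5 CPM (-0.40 ± 0.11, edgeR adjusted p = 0.0168). In complex V, 1 of 17 fell, a share near that of all genes: Atp5g1 (chr11:96072793-96075694) went from 1661 and 1641 CPM to 1111 and 1185 CPM (-0.52 ± 0.10, edgeR adjusted p = 0.00128). The other genes for subunit c had -0.09 ± 0.10 (Atp5g3) and -0.33 ± 0.13 (Atp5g2) and did not pass.

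In complex I, 2 of 39 nuclear genes rose, a share near the 5.75% of all genes, and 0 fell. Both lie on chromosome 8, which is described below. In complex II 1 of 4 rose. Ndufb7 (chr8:83566758-83571623), an accessory subunit of the membrane arm, stood at 230.2 and 233 CPM and then at 329.9 and 368 CPM (0.59 ± 0.12, edgeR adjusted p = 0.00107). Ndufa13 (chr8:69894180-69902558) stood at 499 and 554 CPM and then at 723 and 707.5 CPM (0.44 ± 0.11, edgeR adjusted p = 0.00898). Sdha (chr13:74322255-74350240), the flavoprotein of succinate dehydrogenase, stood at 110.8 and 132 CPM and then at 156 and 167 CPM (0.42 ± 0.13, edgeR adjusted p = 0.0310).

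Of the 4 nuclear genes that rose, 3 lie on chromosome 8, and they are all the members on it. Of the 692 genes tested on chromosome 8, 84.4% had a positive log2 fold change, 30.4% rose, and the median was 0.46, close to the 0.45 of Cox4i1 and the 0.44 of Ndufa13. Outside chromosome 8, 12 of 94 members passed (12.8%), 2 of them higher, against 11.4% of all genes there. On chromosome 15 the 506 genes tested had a median of -0.29, and the 5 members tested there, Cox6c among them, had a median of -0.30. What these chromosomes have in common with the members' changes was not tested.

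Each fit without a single library has 1 library in 1 experiment, and the spread then comes from the other experiment alone. Calls kept or lost in such a fit therefore cannot show whether a change depends on the library left out. Without the 10000-cell library of experiment 1 8 members passed (8.25%, against 7.57% of all genes tested), and COX3, Cox7a2, ND1, ND6, Ndufa13, Sdha and Uqcr10 did not (edgeR adjusted p from 0.0581 for Uqcr10 to 0.381 for Sdha). Cox7a2, ND1, ND6, Sdha, Uqcr10, Cox4i2, Cox8a and Uqcr11 also lost the call when 1 of the other 3 libraries was left out (edgeR adjusted p up to 0.345, for ND6). In a fit with cell number as block, which called 14.1% of all genes, ND1 did not pass (edgeR adjusted p = 0.0960) while ND5 did (-0.41, edgeR adjusted p = 0.0199). 

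Genes that build, express or feed the chain were followed in 5 lists. The share of all genes tested that passed, 12.5%, is the background for each. Of 46 tested assembly factors 1 rose and 2 fell (6.52%). Cox20, which assists the COX2 protein, rose from 24.5 ± 4.69 to 65.3 ± 10.6 CPM (SD, n = 2 each; log2 fold change 1.41 ± 0.17, edgeR adjusted p = 3.18e-06). Cox17, the copper chaperone of complex IV, fell from 1193 ± 108.8 to 611 ± 35.3 CPM (-0.96 ± 0.11, edgeR adjusted p = 1.54e-06). Cox14, another complex IV assembly factor, fell by 0.51 ± 0.13 on the log2 scale (edgeR adjusted p = 0.0104). The median of the list was -0.08.

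Of 41 genes of mitochondrial gene expression 3 rose and 0 fell (7.32%, against 12.5% of all genes): the transcription elongation factor Tefm (0.80 ± 0.17, edgeR adjusted p = 0.00273) and the RNA-binding proteins Fastkd1 (0.58 ± 0.17) and Fastkd5 (0.63 ± 0.18). Their median was -0.08. Of 78 mitochondrial ribosomal proteins, which translate the 13 mitochondrial mRNAs, 1 rose (Mrps16, 0.47 ± 0.12) and 12 fell, with a median of -0.12. That is 16.7% called, against 12.5% of all genes, of which 6.76% fell. The 12 are Mrpl1, Mrpl9, Mrpl28, Mrpl30, Mrpl38, Mrpl41, Mrpl51, Mrpl52, Mrpl55, Mrps11, Mrps12 and Mrps17, and their log2 fold changes ran from -0.69 ± 0.13 (Mrpl9) to -0.35 ± 0.11 (Mrpl30).

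Of 14 tested regulators 2 passed (14.3%, against 12.5% of all genes): Mycn rose from 23.6 ± 2.87 to 62.6 ± 3.26 CPM (1.41 ± 0.16, edgeR adjusted p = 1.14e-06) and Myc fell from 49.9 ± 7.53 to 25.3 ± 1.95 CPM (-0.98 ± 0.17, edgeR adjusted p = 0.000258). None of Nrf1, Gabpa, Gabpb1 and Yy1 passed. Of 44 electron carriers, citrate cycle enzymes and transporters 3 rose and 1 fell (9.09%, against 12.5%). Slc25a4 and Slc25a5, which exchange ADP and ATP across the inner membrane, rose by 1.07 ± 0.12 (edgeR adjusted p = 7.48e-07) and 0.50 ± 0.11 (edgeR adjusted p = 0.00383) on the log2 scale. Vdac3, an outer membrane channel, rose by 0.73 ± 0.14, and the malate dehydrogenase gene Mdh2 fell by 0.46 ± 0.11 (edgeR adjusted p = 0.00563). Slc25a4 and Vdac3 lie on chromosome 8.

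Between 20000 and 10000 cells, no member passed. The edgeR test without a block called 0 of 97 members and 0% of the 12523 genes tested, of which 101 (0.807%) had an unadjusted p under 0.05. DESeq2 also called 0. The members with an unadjusted p under 0.05 were ATP8 and ND5. ATP8, which encodes a small subunit of the ATP synthase, stood at 55.2 and 33.7 CPM with 10000 cells and at 16.2 and 18.2 CPM with 20000 cells (experiments 1 and 2), and the inputs did not overlap. With the experiment as block, which uses the pairing of libraries by day, ATP8 passed with a log2 fold change of -1.34 ± 0.18 (edgeR adjusted p = 1.63e-06), 1 of 4 genes called in the table (0.0319%). Without the filter on low counts it passed without a block too (-1.37, edgeR adjusted p = 0.00585, with 0.0102% of genes called).

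ND5, a membrane subunit of complex I, stood at 1146 and 685 CPM with 10000 cells and at 619 and 584 CPM with 20000 cells. In the paired fit it had -0.58 ± 0.13 (edgeR adjusted p = 0.0647). Most of its spread comes from the 10000-cell library of experiment 1, which was also highest for ATP8. ATP6, which overlaps ATP8, stood at 148 and 196 CPM with 10000 cells and at 171 and 184 CPM with 20000 cells.

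For 5000 cells there is a single library, which was set beside the mean of the other 2 libraries of its day on the log2(CPM + 1) scale, which understates changes of low genes. Of 97 members 0 differed by 1 or more on this scale, against 2.94% of 11326 genes. Among genes of at least 10 CPM, which hold 92 of the members, it was 0 members and 13 of 6438 genes (0.202%), so that a count of 0 is near the background. The median difference was -0.24 for the mitochondrial members, 0.07 for the nuclear members and -0.11 for all genes. With 5000 cells, 12 of 13 mitochondrial genes lay below both other libraries, ND2 being the exception. Of the 84 tested nuclear members 18 (21.4%) lay below both and 39 (46.4%) above both. Over the 11326 genes 49.5% lay below both and 25.2% above both. Among the 1367 genes of at least 100 CPM, 44.2% lay below both and 31.4% above both.

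Promoter accessibility was read from the deposited peak lists, in which a promoter peak is an interval within 1000 bp of the gene start (TSS), taken as the 5′ end in the count table. The lists hold no heights, and their thresholds are not given in the sources used here, so only presence was compared. Of the 84 tested nuclear members, the low-input lists gave a promoter peak to 48 (57.1%) and 59 (70.2%) in experiment 1 with 10000 and 20000 cells. In experiment 2 they gave one to 53 (63.1%), 61 (72.6%) and 71 (84.5%) with 5000, 10000 and 20000 cells. The share over all 12510 nuclear genes tested was 52.3% and 61.8%, then 52.7%, 66.7% and 79.7%. The Omni-ATAC lists gave 29 (34.5%), 67 (79.8%) and 79 (94.1%) with 5000, 10000 and 50000 cells, against 32%, 67% and 89.8%. The members' share lay above that of all genes in each of the 8 lists, by 2.5 to 12.7 percentage points, and it moved with the number of peaks in a list, which ran from 9097 to 95457.

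**Figure D5:**
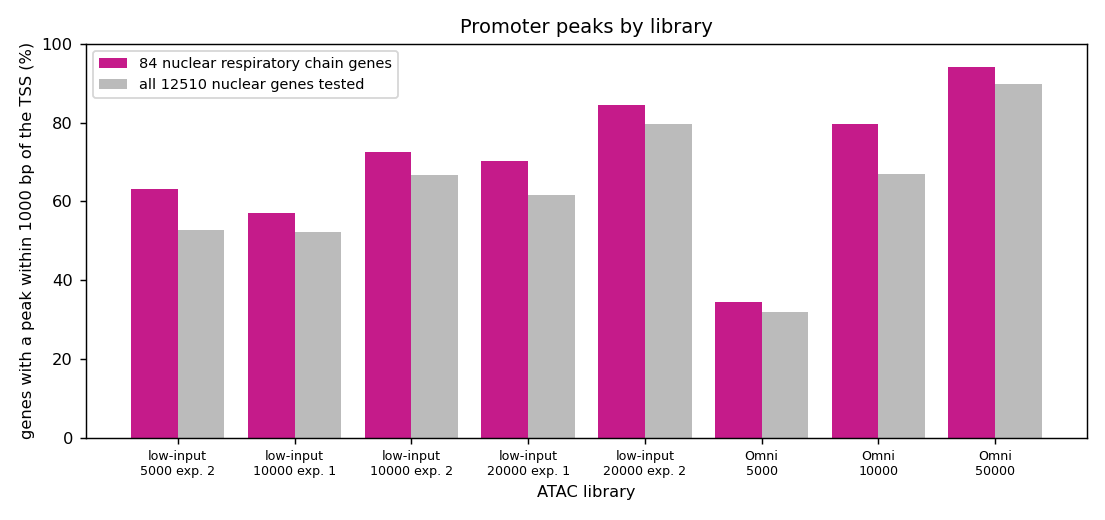
Share of genes (%) with a deposited peak within 1000 bp of the start in each of the 8 ATAC libraries, for the 84 tested nuclear respiratory chain genes and all 12510 nuclear genes tested. Both shares are lowest in the Omni-ATAC list from 5000 cells (34.5% and 32%) and highest in that from 50000 cells (94.1% and 89.8%).

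A promoter peak in all 8 lists was found for 26 of the 84 members, or 31%, against 26% of all genes tested. Among genes of at least 100 CPM it was 24 of 74 members (32.4%) against 453 of 1301 other genes (34.8%). Among them were the catalytic subunit gene Atp5b, the flavoprotein gene Ndufv1, Cox7a2, Cox8a, Uqcr10 and Atp5g1. In the 5 low-input lists 42 members (50%) had one, against 40.4%, and at 100 CPM or more the shares were 52.7% and 53.6%. At 1000 CPM or more a peak in all 8 lists was found for 8 of 22 members (36.4%) and 34 of 130 other genes (26.2%). Of the nuclear members 20 (23.8% of those tested) have a gene on the other strand that starts within 1000 bp, a divergent partner, against 14.2% of all genes tested, so that a peak there cannot be assigned to 1 gene.

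Of the 22 nuclear members above 1000 CPM, Cox4i1, Cox6c and Cox7b had no promoter peak in any low-input list, which is 13.6%, against 5.38% of the 130 other nuclear genes at this level. This rests on 3 genes: at most 1 low-input list held a peak for 18.2% of the 22, against 20% of the others, and all 5 held one for 54.5%, against 44.6%. Cox6c and Cox4i1 had one in the Omni-ATAC list from 50000 cells alone, 160 and 166 bp wide and centred 47.5 and 10.5 bp after the start. For Cox4i1 the result turns with the window: each low-input list has an interval centred 1430 to 2013 bp before its start, within the alternative distance of 2500 bp. Cox7b (chrX:106015700-106022450), at 2320 ± 217 CPM, had none in any list, and its nearest interval with 50000 cells lay 2291 bp before the start. The other tested members without a promoter peak in any list were Cox7b2, Cox8c and Ndufa4l2, all under 10 CPM, and the pseudogene Ndufs5-ps. In all, 79 of the 84 (94.1%) had a promoter peak in some list, against 90.3% of all genes tested, and 5 had none, against 9.7%. Within 2500 bp only Cox8c and Ndufs5-ps of these 5 had none, 2.38% of the members against 6.34% of all genes. In the unified list of the series 57 members had one (67.9%), against 56.2%.

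In 6 of the 8 lists the intervals at member promoters had a higher median width than the whole list. In the low-input list from 20000 cells of experiment 2, 94 intervals lay at member promoters, with a median width of 199.5 bp, against 62 bp over the whole list. Intervals of 9 bp, the shortest in any list, made up 14 of these 94. They made up 31 of 61 in the low-input list from 10000 cells of experiment 1 and 18 of 31 in the Omni-ATAC list from 5000 cells. With intervals under 50 bp left out, 5 of the 84 members (5.95%) had a promoter peak in all 8 lists, against 8.57% of all genes tested.

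No list held a peak on the mitochondrial chromosome. Whether mitochondrial reads were removed is not given in the sources used here, so the accessibility of that genome was not measured. Beside a nuclear copy of ATP6 a peak was present in every list. The copy is the RefSeq pseudogene Gm10925 (chr1:24613971-24614651, GRCm38.p6), which has ATP6 among its synonyms, is 681 bp long like ATP6 itself and has no row in the count table. The interval lay 440 to 572 bp from it and was 744 to 1062 bp wide, between the 4th and the 17th widest in 7 lists and the 799th of 95457 in the Omni-ATAC list from 50000 cells. This region was chosen after its values were seen, and where its reads came from was not tested.

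The motifs shown above were counted over all 69 windows. The NRF1 motif, searched like the others on both strands, was in 16 (23.2%), against 10.8% of the 9989 genes tested with a window and 4.60% of all 32853 windows in the table. The holders include genes of complexes I, II, III, IV and V, among them Ndufa6, Sdhd, Uqcrc1, Cox6a1 and Atp5g3, and 4 of them (Cox6a1, Ndufb4, Sdha and Uqcrc1) held it more than once. The ETS motif CCGGAAGT was in 5 (7.25%), against 8.79% of genes tested and 3.89% of all windows. YY1's AAGATGGCG was in 6 (8.70%), against 3.33% and 1.40%. TATAAA was in 8 (11.6%), against 6.83% and 13.6%, and on the gene's strand alone in 3 (4.35%), against 4.27% of genes tested. No match overlapped a match of another motif in these windows, and a match is a description of the sequence alone.

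In all 6 holders the YY1 motif lay on the gene's strand and began 23 to 36 bases after the start. Of the 333 tested genes with this motif, 184 (55.3%) had it on the gene's strand after the start. Of the 6, 5 encode complex I subunits: Ndufa9, Ndufc1, Ndufs4, Ndufs6 and Ndufs7, and the other is Atp5j2. Of the 69 windows, 25 held at least one of the NRF1, ETS and YY1 motifs, 2 held motifs of 2 factors, and 44 held none.

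Holders of the NRF1 motif had a promoter peak in all 8 lists in 5 of 16 cases, and the other genes with a window in 17 of 53. For the ETS motif it was 3 of 5 against 19 of 64, for YY1 0 of 6 against 22 of 63, and for TATAAA 0 of 8 against 22 of 61. The median level was 499.5 CPM for NRF1 holders and 464 CPM for the other genes. For ETS it was 850 against 456.7 CPM, for YY1 443.4 against 494.2 CPM and for TATAAA 369.4 against 547.2 CPM. These counts are small and are given without a test.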

How the data were processed

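Respiratory chain genes were analysed in 5 mRNA and 8 ATAC libraries of mouse E14 cells, grouped by sample title. The authors deposited gene counts as whole numbers, 1 column per library, in mm10 coordinates, per the file headers; the lowest chi-square per gene between libraries was 8.7. They deposited ATAC peaks as intervals without height or score, 1 list per library and 1 unified list. The submitters' processing notes name, without role or order, cutadapt, Bowtie2 2.1.0, SAMtools 1.3.1, Picard, bedtools 2.24.0, MACS2 2.1.1, STAR 2.5, featureCounts (Subread 1.5.0-p1) and mm10. The use of strand, the treatment of reads matching several places, peak thresholds and any removal of mitochondrial reads are not given in the sources used here.

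CPM were calculated from these counts. The whole table was fitted with edgeR 4.0.16 in R 4.3.3 (TMM, filterByExpr, glmQLFit, glmQLFTest), Benjamini-Hochberg adjustment over 12523 genes and a threshold of 0.05, without a block; DESeq2 1.42.0 was an alternative. The series' design text places the experiments on different days, and the experiment number in the titles thus pairs libraries across cell numbers: over 12523 genes, the change between experiments at one cell number had r = 0.536 with that at the other (a description). Tested on simulated data, the comparison of experiments called 44% of 2-fold and 100% of 4-fold changes (12517 genes), and that of cell numbers 10% and 76% (12502 genes).

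Named were all mitochondrial genes, nuclear genes past the threshold, the 2 with the highest mean CPM in each complex, the isoform groups, tested genes without any promoter peak, and called genes of the accompanying lists. Members and lists were chosen with earlier results of these data known. Alternatives varied normalization, the filter, the block, the libraries, the pseudocount, the TSS distance, the peak width and the motif window.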

Additional observations from a re-analysis of the deposited data

Results flagged for a closer look

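In 6 quantities the library of experiment 2 lay above that of experiment 1 at one cell number and below it at the other. There is 1 library at each cell number in each experiment, and these differences between cell numbers were not tested. The nuclear to mitochondrial ratio was higher in experiment 2 by 0.322 at 10000 cells and differed by -0.182 at 20000 cells. For COX1 the log2 CPM ratio of experiment 2 to experiment 1 was -0.13 at 10000 cells and 0.40 at 20000 cells. For ATP8 it was -0.71 and 0.17, in the same order. For ND4L it was 0.20 and -0.94, on 54 to 76 counts per library at these inputs. For ND3 it was -0.14 and 0.08, and for ND4 0.044 and -0.010.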

How the results depend on the processing

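The number of members called between experiments stayed within 1.5 times the 15 of the test described above under other normalizations, DESeq2, other filters, the replicate block and all 5 libraries (13 to 20). Leaving out single libraries gave 8 to 16. Over all genes the lowest counts were 803 and 869 of 1567, without the 10000-cell and the 20000-cell library of experiment 2. The fits without single libraries have 1 library in 1 experiment, so their counts cannot show how far the calls depend on a library. With cell number as block 15 passed, 14 of them shared. Without a filter the median over all genes was 0.12. For cell number the count was 1 without a filter and 1 with the experiment as replicate block, in place of 0. Of 173 single-gene values under alternatives, 146 kept direction and call, 25 lost the call, 2 gained it and 0 reversed. The mean ratio of sums ran from 2.98 to 3.25 without single libraries, and the ratio of medians was 0.941. With a pseudocount of 0.1, 2 members (ND4L and Ndufa4l2) differed 2-fold with 5000 cells, against 7.36% of 11326 genes. The 26 members with a peak in all 8 lists became 5 with intervals of at least 50 bp (5.95% of those tested, against 8.57% of all genes), 57 in the unified list, and 26 to 42 without single lists, the 42 without the Omni-ATAC list from 5000 cells (chosen after seeing the data). Before the start alone, 3 windows held the ETS motif (4.35%, against 6.34% of genes tested) and 0 the YY1 motif (0%, against 1.20%). On the gene's strand alone 1 held the ETS motif (1.45%, against 4.95% of genes tested) and 3 TATAAA (4.35%, against 4.27%). Depth limits the reading of Cox6a2, Cox8b and ND4L, and the depth of the ATAC libraries is unknown.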
